A study of Homo sapiens with 9 samples.

Results

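The genes neighbouring the VTRNA1 locus were taken as the annotated protein-coding genes of chromosome 5 (GRCh38) whose lower coordinate lay between 139.7 and 141.7 Mb, without the clustered protocadherin genes PCDHA, PCDHB and PCDHG. The annotation held 84 protein-coding genes there, of which 53 were clustered protocadherins and 31 were kept, out of 60664 genes in the count table. The question was how these 31 genes were expressed when one of the small RNA genes between them had been edited. Polyadenylated RNA of Huh-7, a human hepatocellular carcinoma line, was sequenced from subconfluent cells in DMEM/F12 medium with 10% heat-inactivated FBS. There were 3 libraries each of the unedited line (WT), of a line with a CRISPR/Cas9 knockout of VTRNA1-1 (1-1 KO) and of a line with a knockout of VTRNA1-2 (1-2 KO). The 1-2 KO line had been grown from 1 edited WT cell, for which a pair of guides was used, and the WT and 1-1 KO lines came from another laboratory. Each knockout is thus represented by 1 line, the 3 libraries of a line, which the study calls biological replicates, all come from that line, and differences between lines cannot be told apart from effects of the edited gene.

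Vault RNAs are short non-coding RNAs transcribed by RNA polymerase III. They are partly bound in the vault, a large cytoplasmic ribonucleoprotein particle, and they also occur free in the cytoplasm, where VTRNA1-1 is known to bind the autophagy receptor p62. The human VTRNA1 genes stand in a gap on the long arm of chromosome 5, with a dense group of housekeeping genes on the centromere side and the protocadherin clusters on the telomere side. The neighbours encode, among others, a pair of histidyl-tRNA synthetases, spliceosome and transcription factors, a growth factor and regulators of the actin cytoskeleton.

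The edited genes are shown first, because position in all that follows is measured from them. VTRNA1-1 (99 nt) lies at chr5:140711275-140711373, VTRNA1-2 (89 nt) at chr5:140718925-140719013 and VTRNA1-3 (89 nt) at chr5:140726158-140726246, all on the plus strand of GRCh38. Capitals mark the 29 nt at the 5′ end and the 2 nt at the 3′ end that are identical in all 3 genes.
VTRNA1-1: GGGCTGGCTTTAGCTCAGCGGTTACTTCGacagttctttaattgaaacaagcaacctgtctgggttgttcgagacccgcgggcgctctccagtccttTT
VTRNA1-2: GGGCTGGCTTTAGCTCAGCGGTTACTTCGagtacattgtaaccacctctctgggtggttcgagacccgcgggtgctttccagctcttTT
VTRNA1-3: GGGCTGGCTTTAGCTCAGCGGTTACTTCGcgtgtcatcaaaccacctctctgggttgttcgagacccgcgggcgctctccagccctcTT

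The promoter windows of the nearest genes are shown because the results begin with these genes. They are RefSeq sequences of GRCh38.p14 and hold 250 bases before and 50 after the annotated start, and such a window was given for 27 of the 31 genes. The ZMAT2 window is chr5:140700197-140700496 on the plus strand, and the HARS1 window is chr5:140691321-140691620 on the minus strand. The HARS1 window also contains the start of HARS2, which is transcribed in the opposite direction from a start 85 nt away. Capitals mark every match, on either strand, to one of 6 motifs. The letters GGGCGG were searched as the GC box, the letters CGGAAG as the ETS core and the letters TATAAA as the TATA box. The letters CCAAT were searched as the CCAAT box, the letters AAGATGGC as the YY1 core and the letters TGACGTCA as the CRE.
ZMAT2: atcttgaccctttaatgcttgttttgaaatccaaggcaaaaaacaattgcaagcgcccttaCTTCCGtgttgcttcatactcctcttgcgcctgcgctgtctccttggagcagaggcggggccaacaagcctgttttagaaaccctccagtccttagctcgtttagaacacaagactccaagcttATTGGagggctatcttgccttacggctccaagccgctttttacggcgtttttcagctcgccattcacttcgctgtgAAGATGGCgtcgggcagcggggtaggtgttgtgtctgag
HARS1: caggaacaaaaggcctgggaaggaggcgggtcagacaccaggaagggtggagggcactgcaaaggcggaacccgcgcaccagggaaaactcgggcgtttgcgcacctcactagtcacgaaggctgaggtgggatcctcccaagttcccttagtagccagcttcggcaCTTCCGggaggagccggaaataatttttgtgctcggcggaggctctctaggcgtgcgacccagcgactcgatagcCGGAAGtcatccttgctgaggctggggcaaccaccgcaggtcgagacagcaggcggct
The ZMAT2 window held 1 ETS core, 1 CCAAT box and 1 YY1 core, and the HARS1 window held 2 ETS cores. Of the 27 windows of the neighbouring genes, 12 held an ETS core and 19 a GC box, and over 27305 genes with a window, the first one of each, these shares were 19.9% and 44.6%. A TATA box stood in 6 of the 27 (12.0% of all genes), a CCAAT box in 10 (35.7%), a YY1 core in 4 (3.03%) and a CRE in 1 (1.98%). The set of all genes was not limited to protein-coding genes, while all the neighbours are protein-coding. Windows that overlap, such as those of HARS1 and HARS2, can share a match. These are matches of letters, and no binding was measured.

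The libraries held between 32384469 and 41782387 counts. Vault RNAs carry no poly(A) tail, and the libraries were made from polyadenylated RNA. VTRNA1-2 had 0 counts in all 9 libraries, which allows up to 3 counts in each, VTRNA1-1 had 1 count in library WT 1 and 0 in the other 8, and VTRNA1-3 had between 0 and 2 counts. The edits could therefore not be checked in these counts, and the study assessed vault RNA levels of the sequenced lines by northern blot. All 8 hepatocyte markers were measured in every line. Summed over the list, they were from 12500 to 13200 CPM (counts scaled to a common library size) in WT. The sums were from 27800 to 28700 in 1-1 KO and from 19100 to 20900 in 1-2 KO. They differed mostly through AFP (mean 1760 CPM in WT, 8170 in 1-1 KO and 7420 in 1-2 KO) and ALB (2530, 9430 and 4740). The means of APOB, TF and TTR were below WT in 1-2 KO, and that of HNF4A in 1-1 KO. Over the short marker lists, the sums were at most 8.04 CPM for endothelial, 89.2 CPM for fibroblast or stellate and 47.0 CPM for neural genes in any library. In bulk RNA, fewer cells of a type and less RNA per cell cannot be told apart. Library 1-2 KO 1 stood apart from the other 1-2 KO libraries, since the chi-square over its degrees of freedom was 15.1 and 16.1 against 2.67 between those, and WT 3 stood apart from WT 1 with 10.4.

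Of the 31 neighbours, 24 had enough counts to be tested. In 1-1 KO, 15 of the 24 were upregulated and 1 was downregulated compared to WT, by edgeR's quasi-likelihood test at a Benjamini-Hochberg adjusted p under 0.05. Over all 17207 tested genes, 32.5% were higher and 30.9% were lower in this comparison. In 1-2 KO, 18 of the 24 were upregulated and 2 were downregulated compared to WT, against 28.2% higher and 26.2% lower over all genes. Both knockouts had a median log2 fold change of 0.30 over the 24 genes, against 0.01 and 0.02 over all tested genes. Of the 8 tested neighbours whose exons overlap no other protein-coding gene, 3 were upregulated in 1-1 KO (median 0.27) and 6 in 1-2 KO (median 0.40). Both comparisons used the same 3 WT libraries, so they are not independent of each other. Compared directly, 9 of the 24 were higher and 7 lower in 1-2 KO than in 1-1 KO, against 33.1% higher and 32.2% lower over all genes, with a median of 0.08. The 24 tested genes were thus mostly higher than WT in both lines, by small factors. In 1-1 KO this held for the centromere side, while 1 of 6 was upregulated on the telomere side. The 3 of 8 genes without overlap were near the share of all genes in 1-1 KO. Between the knockouts, the counts in both directions were near the shares of all genes.

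Set against the chromosome around them, the knockouts had different profiles. In 1-1 KO, the 18 tested neighbours on the centromere side were all above 0, from 0.01 to 1.09 with a median of 0.32. Of these, 14 were upregulated and none downregulated. The lowest, ANKHD1, turned to -0.01 with no filter on low counts or with DESeq2's Wald test, and to -0.08 without WT 1. The 6 tested neighbours on the telomere side had a median of 0.08, with 1 upregulated and 1 downregulated. The 117 other protein-coding genes outside the window and within 10 Mb of VTRNA1-2 had a median of -0.16, with 24 higher and 54 lower, and the 579 others of the whole chromosome had a median of -0.17. The centromere-side neighbours of VTRNA1-1 thus lay above WT on a stretch of chromosome 5 that lay below it. The 34 tested clustered protocadherins of the window, all on the telomere side, had a median of 1.34 in 1-1 KO, with 28 higher and 0 lower, and of 0.78 in 1-2 KO, with 24 higher and 0 lower. Compared directly, 3 of them were higher and 22 lower in 1-2 KO than in 1-1 KO, with a median of -0.50.

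In 1-2 KO the neighbours lay near the median of the genes 1 to 10 Mb away, and below that of the clustered protocadherins among them. The 18 on the centromere side had a median of 0.24, with 12 upregulated and 2 downregulated, and all 6 on the telomere side were upregulated with a median of 0.36. The 117 flanking genes had a median of 0.34, with 69 higher and 10 lower. Beyond 40 Mb on the centromere side, 270 genes had a median of -0.39. The median of the neighbours minus that of the flanking genes was 0.46 in 1-1 KO and -0.04 in 1-2 KO. In the direct comparison the 6 telomere-side neighbours were all higher in 1-2 KO, with a median of 0.54, as were 86 of the 117 flanking genes (median 0.47). The 18 on the centromere side had a median of -0.06, with 3 higher and 7 lower. Genes are not replicates, and each profile belongs to 1 line.

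The library medians followed the same order. Relative to the WT mean, on the log2(CPM + 0.1) scale, the median of the centromere-side neighbours was 0.32, 0.31 and 0.30 in the 1-1 KO libraries and 0.21, 0.26 and 0.26 in the 1-2 KO libraries. That of the telomere-side neighbours was 0.08, 0.07 and -0.05 in 1-1 KO and 0.36, 0.38 and 0.40 in 1-2 KO. The flanking genes were at -0.15, -0.13 and -0.12 in 1-1 KO and at 0.28, 0.33 and 0.30 in 1-2 KO. No library of one knockout overlapped those of the other in any of the 3 groups of genes.

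Distance within the window did not order the changes in 1-1 KO. The medians were 0.27 for the 8 genes within 100 kb of VTRNA1-2, 0.34 for the 8 from 100 to 500 kb and 0.22 for the 2 beyond 500 kb, all on the centromere side. In 1-2 KO these medians were 0.21, 0.19 and 0.63. Over 24 genes, Spearman's rank correlation between absolute distance and log2 fold change came to -0.196 for 1-1 KO and 0.403 for 1-2 KO, and -0.0733 and 0.164 over the 18 on the centromere side. These are descriptions across genes that share the same libraries. The fold changes of the 24 genes also went with their level, with a rank correlation against mean log2 CPM of -0.306 and -0.451.

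The window was set by coordinates, and the genes just outside and just inside its edges are given here without a test. On the centromere edge, CXXC5 (1035.0 kb away) and UBE2D2 (1090.5 kb) had log2 fold changes of -0.13 and -0.19 in 1-1 KO and of 0.88 and 0.36 in 1-2 KO. Just inside, PSD2 and NRG2 were too low to be tested, and PURA (593.3 kb), the first tested gene, was at 0.11 and 0.81. On the telomere edge, ARAP3 (934.4 kb) was inside at 0.71 and 1.66, and PCDH1 (1134.1 kb) and DELE1 (1204.8 kb) were outside at 0.22 and -0.17 in 1-1 KO and at 0.27 and 0.35 in 1-2 KO.

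The gene closest to the vault RNAs, ZMAT2, had the largest change in 1-1 KO among the 5 nearest genes. ZMAT2 (chr5:140698680-140706686, plus strand) encodes a zinc finger protein of the spliceosome and ends 4.6 kb before VTRNA1-1 and 12.2 kb before VTRNA1-2. Its level was 83.6, 81.2 and 82.3 CPM in WT, 123, 126 and 132 CPM in 1-1 KO and 91.2, 99.0 and 97.2 CPM in 1-2 KO. The 3 lines did not overlap, and 1-1 KO was the highest. The mean rose from 82.4 ± 1.21 (SD, n = 3) to 127 ± 4.69 CPM in 1-1 KO, a log2 fold change of 0.62 ± 0.04 (SE, edgeR adjusted p = 8.48e-09). In 1-2 KO it rose to 95.8 ± 4.07 CPM, a log2 fold change of 0.22 ± 0.04 (edgeR adjusted p = 0.000372). The direct difference of -0.41 ± 0.04 passed the test (edgeR adjusted p = 5.41e-07). Per kb of exon, ZMAT2 was the most highly expressed of the 31 genes in WT, at 48.2 CPM per kb, and it shares 152 nt of exon with HARS2 on the same strand.

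HARS1 and HARS2, the cytosolic and mitochondrial histidyl-tRNA synthetases, are transcribed away from each other and changed by similar amounts. HARS2 (chr5:140691430-140699305, plus strand, 19.6 kb from VTRNA1-2) was at 36.8, 39.3 and 40.7 CPM in WT, 46.0, 44.8 and 43.6 CPM in 1-1 KO and 42.8, 46.5 and 44.3 CPM in 1-2 KO. HARS1 (chr5:140673035-140691537, minus strand, 27.4 kb away) was at 83.7, 80.9 and 83.4 CPM in WT, 92.5, 98.2 and 92.3 CPM in 1-1 KO and 95.5, 99.7 and 101 CPM in 1-2 KO. For both genes every knockout library was above every WT library, and the knockouts overlapped. HARS2 rose by 0.20 ± 0.05 on the log2 scale in 1-1 KO (edgeR adjusted p = 0.00218) and by 0.20 ± 0.05 in 1-2 KO (edgeR adjusted p = 0.00368). HARS1 rose by 0.19 ± 0.04 (edgeR adjusted p = 0.000577) and 0.26 ± 0.04 (edgeR adjusted p = 4.93e-05). The direct differences of -0.01 ± 0.05 for HARS2 and 0.07 ± 0.04 for HARS1 did not pass the test, and without library 1-2 KO 1 that of HARS1 was called at 0.09. Their exons share 108 nt on opposite strands.

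The other synthetases, encoded outside the window of neighbouring genes, did not move with them in 1-1 KO. Of 19 other cytosolic aminoacyl-tRNA synthetases and their subunits, 2 were higher and 14 lower in 1-1 KO (median -0.28), and 6 were higher and 7 lower in 1-2 KO (median -0.02). SARS1 and FARSB had the smallest adjusted p in 1-1 KO, at -0.97 and -0.75. Of 15 tested mitochondrial synthetases, 3 were higher and 10 lower in 1-1 KO (median -0.30), and 4 were higher and 5 lower in 1-2 KO (median 0.00).

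WDR55 and IK, the next genes on the centromere side, were upregulated in 1-1 KO, and IK also in 1-2 KO. WDR55 (chr5:140664868-140674124, plus strand, 44.8 kb away), a nucleolar WD-repeat protein of ribosomal RNA processing, was at 34.1, 32.3 and 30.5 CPM in WT, 36.1, 35.4 and 39.4 CPM in 1-1 KO and 34.9, 36.1 and 35.1 CPM in 1-2 KO. The WT libraries were the lowest in all cases, by a narrow margin. WDR55 rose from 32.3 ± 1.80 to 37.0 ± 2.13 CPM in 1-1 KO, by 0.19 ± 0.05 (edgeR adjusted p = 0.00664). The difference of 0.13 ± 0.05 in 1-2 KO was not called (edgeR adjusted p = 0.0592), but was at 0.17 without library WT 1. IK (chr5:140647058-140662480, plus strand, 56.4 kb away), which like ZMAT2 encodes a component of the spliceosomal B complex, was at 114, 114 and 113 CPM in WT, 132, 136 and 135 CPM in 1-1 KO and 121, 131 and 134 CPM in 1-2 KO. All knockout libraries were above all WT libraries. The log2 fold changes of IK were 0.24 ± 0.04 (edgeR adjusted p = 0.000114) and 0.18 ± 0.04 (edgeR adjusted p = 0.0015). DND1, a germ cell RNA-binding protein whose exons lie entirely within those of WDR55 on the other strand, had 0 counts in all 9 libraries. Since it is not given whether the counting used strand, this 0 sets no limit on its level.

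Other proteins of the spliceosomal B complex went both ways in 1-1 KO. Of 11 tested, 4 were higher and 7 lower in 1-1 KO with a median of -0.22, and 0 were higher and 7 lower in 1-2 KO with a median of -0.10. SNRNP200, the helicase that unwinds U4 from U6, was at 0.60 in 1-1 KO, and PRPF4B, a kinase of the complex, was at -0.43 in 1-2 KO.

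**Figure D1:**
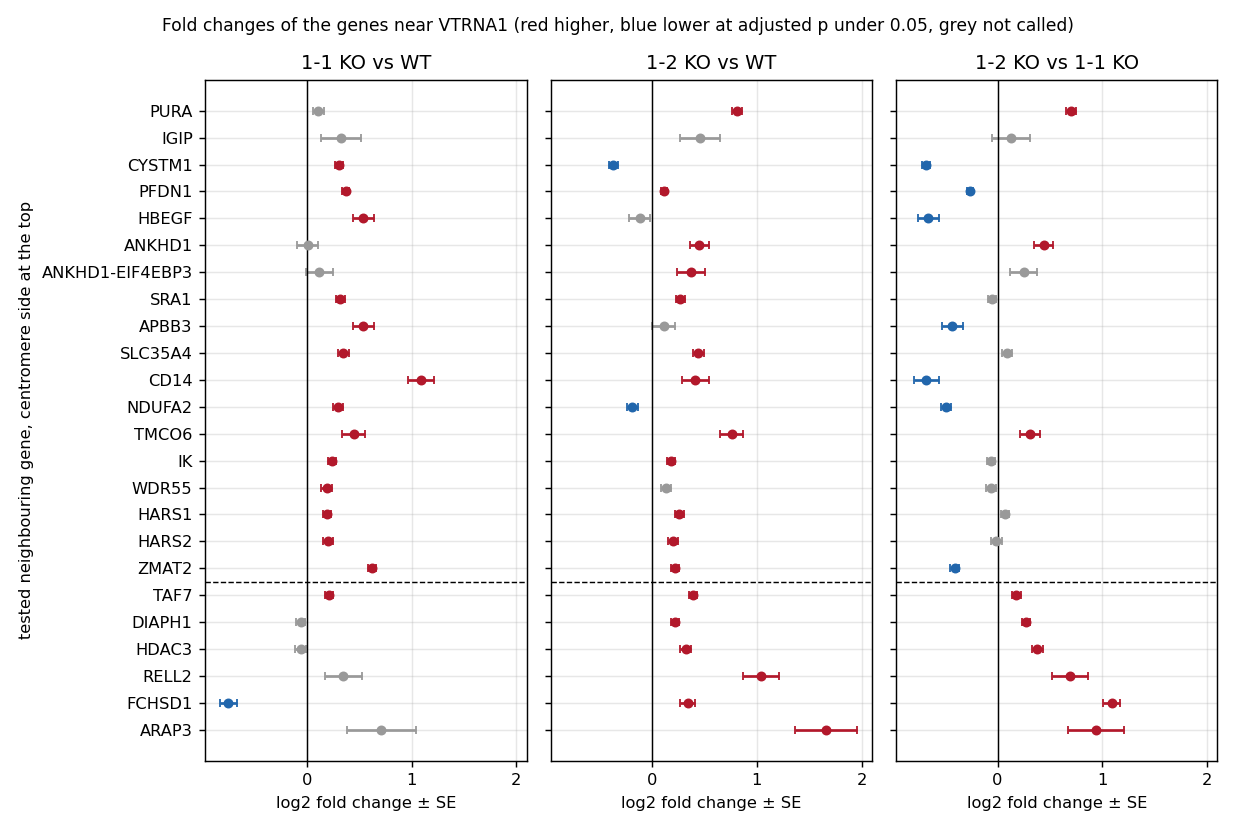
Log2 fold change ± SE of the 24 tested neighbouring genes for the 3 comparisons, in chromosomal order with the centromere side at the top, and with the vault RNA genes at the dashed line. Red points were higher and blue points lower at an adjusted p under 0.05, and grey points were not called. On the centromere side all 18 points of 1-1 KO are above 0, and on the telomere side all 6 points of 1-2 KO are called higher.

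Among the genes of mitochondria and membranes, NDUFA2 and CYSTM1 moved in opposite directions in the knockouts. NDUFA2 (71.2 kb away), an accessory subunit of respiratory complex I, was at 45.7, 50.9 and 51.6 CPM in WT, 61.4, 59.1 and 61.4 CPM in 1-1 KO and 45.2, 43.2 and 41.0 CPM in 1-2 KO. CYSTM1 (436.9 kb away), a small cysteine-rich membrane protein, was at 51.3, 55.0 and 52.6 CPM in WT, 66.2, 67.9 and 62.6 CPM in 1-1 KO and 40.7, 39.8 and 42.0 CPM in 1-2 KO. For both genes the 3 lines did not overlap, with 1-1 KO the highest and 1-2 KO the lowest. NDUFA2 rose by 0.30 ± 0.05 in 1-1 KO (edgeR adjusted p = 0.000164) and changed by -0.19 ± 0.05 in 1-2 KO (edgeR adjusted p = 0.00639). CYSTM1 rose by 0.31 ± 0.04 (edgeR adjusted p = 2.53e-05) and changed by -0.37 ± 0.04 (edgeR adjusted p = 6.36e-06). These were the 2 downregulated neighbours of 1-2 KO. Of 10 other tested complex I subunits of the NDUFA series, 4 were higher and 1 lower in 1-1 KO (median 0.11). In 1-2 KO, 2 were higher and 3 lower (median -0.05). Compared directly, 2 were higher and 6 lower in 1-2 KO than in 1-1 KO (median -0.26), and NDUFA2 was also lower, at -0.49.

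TMCO6, SLC35A4 and PFDN1 were upregulated in both knockouts. TMCO6 (chr5:140639435-140645408, plus strand, 73.5 kb away), named for its transmembrane and coiled-coil domains, was at 5.68, 5.39 and 5.71 CPM in WT, 8.03, 7.88 and 6.94 CPM in 1-1 KO and 11.0, 8.34 and 8.98 CPM in 1-2 KO. The lines did not overlap, and library 1-2 KO 1 was the highest. TMCO6 rose from 5.59 ± 0.177 to 7.62 ± 0.594 CPM in 1-1 KO (log2 fold change 0.45 ± 0.11, edgeR adjusted p = 0.00232) and to 9.45 ± 1.40 CPM in 1-2 KO (0.76 ± 0.11, edgeR adjusted p = 3.08e-05), or 0.63 without 1-2 KO 1. The direct difference of 0.31 ± 0.10 was called (edgeR adjusted p = 0.015), but not without 1-2 KO 1, at 0.19, or without 1-1 KO 3, at 0.25. SLC35A4, of the nucleotide sugar transporter family, was between 72.8 and 77.2 CPM in WT, between 88.4 and 101 CPM in 1-1 KO and between 94.8 and 107 CPM in 1-2 KO. It rose by 0.35 ± 0.05 and 0.44 ± 0.05, and among the libraries left out, its direct difference of 0.09 was called only without 1-2 KO 1, at 0.14. Neither knockout overlapped WT. PFDN1, a subunit of the prefoldin chaperone for actin and tubulin, was between 86.1 and 87.5 CPM in WT, between 109 and 115 CPM in 1-1 KO and between 91.6 and 96.3 CPM in 1-2 KO. It rose by 0.37 ± 0.03 and 0.11 ± 0.03, and the smaller rise was no longer called without WT 3 or without 1-2 KO 2, at 0.09 in both. The other 5 prefoldin subunits were all lower in 1-1 KO (median -0.40) while PFDN1 was higher, with PFDN4 at -0.74 and PFDN2 at -0.61, and 1 of them, PFDN6, was lower in 1-2 KO at -0.71.

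The signalling genes CD14 and HBEGF were upregulated in 1-1 KO. CD14 (chr5:140631728-140633700, minus strand, 85.2 kb away), a co-receptor for bacterial lipopolysaccharide, had 52, 50 and 44 counts in WT, 124, 120 and 112 counts in 1-1 KO and 81, 68 and 69 counts in 1-2 KO. The 3 lines did not overlap. CD14 rose from 1.34 ± 0.0453 to 2.86 ± 0.103 CPM in 1-1 KO, a log2 fold change of 1.09 ± 0.12 (edgeR adjusted p = 2.64e-06) and 2.13-fold. It was the largest change of the 24 tested neighbours in that line. In 1-2 KO it rose to 1.78 ± 0.12 CPM (0.41 ± 0.13, edgeR adjusted p = 0.0159), a call that was lost without WT 1, at 0.39, or without 1-2 KO 1, at 0.35. CD14 is also a monocyte marker, and the 7 genes of the separate monocyte list were at a summed 115 to 116 CPM in WT, 99.0 to 105 CPM in 1-1 KO and 22.0 to 22.4 CPM in 1-2 KO, nearly all of it LYZ, with CD163 and CD68 at 3 counts or fewer in every library.

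HBEGF (chr5:140332843-140346603, minus strand, 372.3 kb away), a membrane-anchored ligand of the EGF receptor, was at 7.29, 6.99 and 7.93 CPM in WT, 11.6, 10.1 and 10.5 CPM in 1-1 KO and 6.65, 7.83 and 5.94 CPM in 1-2 KO. All 1-1 KO libraries were above the other 6, and 1-2 KO overlapped WT. HBEGF rose from 7.40 ± 0.479 to 10.8 ± 0.756 CPM in 1-1 KO, by 0.54 ± 0.10 (edgeR adjusted p = 0.000268). In 1-2 KO the difference of -0.12 ± 0.10 was not called (edgeR adjusted p = 0.355), and the direct difference of -0.66 ± 0.10 was (edgeR adjusted p = 4.02e-05). NRG2, a ligand of the related ErbB receptors, had between 0 and 6 counts in any library. Of 6 other tested ligands of the family, 2 were higher and 1 lower in 1-1 KO, and 1 was higher and 5 lower in 1-2 KO, with EGF at 2.23 and -1.34.

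APBB3 was also higher in 1-1 KO than in the other lines. APBB3 (chr5:140558268-140564781, minus strand, 154.1 kb away), an adaptor that binds the amyloid precursor protein, was at 2.89, 2.75 and 2.79 CPM in WT, 4.28, 3.91 and 4.07 CPM in 1-1 KO and 3.28, 2.89 and 2.92 CPM in 1-2 KO. The 1-1 KO libraries were above all others. APBB3 rose from 2.81 ± 0.0733 to 4.09 ± 0.182 CPM in 1-1 KO, by 0.54 ± 0.10 (edgeR adjusted p = 0.00035), and was not called in 1-2 KO at 0.11 ± 0.11 (edgeR adjusted p = 0.414). The direct difference of -0.43 ± 0.10 passed the test (edgeR adjusted p = 0.00162). APBB3 and SLC35A4 share 274 nt of exon on opposite strands. IGIP, which induces IgA secretion, was between 0.634 and 1.26 CPM in all libraries and was not called in any comparison, although its difference of 0.46 ± 0.19 in 1-2 KO (edgeR adjusted p = 0.0543) was called without WT 1, at 0.57.

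PURA, TAF7 and HDAC3, all regulators of transcription, were higher in 1-2 KO. PURA (chr5:140107777-140125619, plus strand, 593.3 kb away), a protein that binds purine-rich single strands, was at 20.4, 22.4 and 20.5 CPM in WT, 22.3, 22.5 and 23.6 CPM in 1-1 KO and 38.1, 37.1 and 35.9 CPM in 1-2 KO. The 1-2 KO libraries stood far above the other 6. PURA rose from 21.1 ± 1.14 to 37.0 ± 1.09 CPM in 1-2 KO, a log2 fold change of 0.81 ± 0.05 (edgeR adjusted p = 1.4e-08). In 1-1 KO its difference of 0.11 ± 0.05 was not called (edgeR adjusted p = 0.0949), but was at 0.15 without WT 2. The direct difference was 0.70 ± 0.05 (edgeR adjusted p = 3.25e-08).

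TAF7 (chr5:141259884-141320784, minus strand, 540.9 kb away), a subunit of the general transcription factor TFIID, stands between the protocadherin clusters. It was at 117, 117 and 118 CPM in WT, 134, 132 and 142 CPM in 1-1 KO and 149, 157 and 156 CPM in 1-2 KO. The 3 lines did not overlap. TAF7 rose by 0.21 ± 0.04 in 1-1 KO (edgeR adjusted p = 0.000191) and by 0.39 ± 0.04 in 1-2 KO (edgeR adjusted p = 6.45e-07), and it was the only telomere-side neighbour called higher in 1-1 KO. Of 13 other tested TFIID subunits, 1 was higher and 5 were lower in 1-1 KO (median -0.08). In 1-2 KO, 3 were higher and 4 lower (median -0.09). Those with the smallest adjusted p in 1-2 KO went opposite ways, TAF13 at -0.76 and TAF4B at 5.5. SLC25A2, a mitochondrial ornithine carrier encoded within the TAF7 gene, had at most 1 count in any library.

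HDAC3 (chr5:141620876-141636849, minus strand, 901.9 kb away), a histone deacetylase that represses transcription, was at 52.9, 56.8 and 56.7 CPM in WT, 54.6, 53.6 and 51.7 CPM in 1-1 KO and 64.9, 70.4 and 73.1 CPM in 1-2 KO. WT and 1-1 KO overlapped, and 1-2 KO was above both. HDAC3 rose from 55.5 ± 2.22 to 69.5 ± 4.22 CPM in 1-2 KO, by 0.32 ± 0.05 (edgeR adjusted p = 5.61e-05), and was at -0.06 ± 0.05 in 1-1 KO (edgeR adjusted p = 0.333). SRA1, the steroid receptor RNA activator, was between 30.6 and 32.7 CPM in WT, between 38.5 and 40.8 CPM in 1-1 KO and between 37.7 and 38.6 CPM in 1-2 KO. It rose by 0.32 ± 0.04 and 0.27 ± 0.04.

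At the telomere end of the window stand DIAPH1, RELL2, FCHSD1 and ARAP3, all upregulated in 1-2 KO. DIAPH1 (chr5:141515016-141619055, minus strand, 796.0 kb away), a formin that elongates actin filaments, was at 223, 218 and 232 CPM in WT, 217, 221 and 210 CPM in 1-1 KO and 247, 269 and 267 CPM in 1-2 KO. WT and 1-1 KO overlapped, and 1-2 KO was above both. DIAPH1 rose from 224 ± 6.86 to 261 ± 12.3 CPM in 1-2 KO, by 0.22 ± 0.04 (edgeR adjusted p = 0.000441), and was at -0.06 ± 0.04 in 1-1 KO (edgeR adjusted p = 0.259). The other diaphanous formins, DIAPH2 and DIAPH3, were at -0.71 and 0.10 in 1-1 KO, both called, and were not called in 1-2 KO, at -0.07 and 0.02.

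FCHSD1 (chr5:141639302-141651418, minus strand, 920.3 kb away), an F-BAR and SH3 domain protein, was the only neighbour downregulated in 1-1 KO. It was at 11.0, 9.65 and 9.73 CPM in WT, 6.29, 5.96 and 5.78 CPM in 1-1 KO and 13.1, 12.6 and 12.8 CPM in 1-2 KO. The 3 lines did not overlap, and the order was the reverse of that of NDUFA2 and CYSTM1. FCHSD1 went from 10.1 ± 0.759 to 6.01 ± 0.255 CPM in 1-1 KO, a log2 fold change of -0.75 ± 0.08 (edgeR adjusted p = 9.93e-07). In 1-2 KO it rose to 12.8 ± 0.278 CPM (0.34 ± 0.07, edgeR adjusted p = 0.00128). Its exons share 990 nt with those of RELL2 on the other strand, 38.3% of the exonic length of RELL2 and 16.3% of its own.

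RELL2 (chr5:141636950-141641064, plus strand, 917.9 kb away), a relative of the TNF receptor family member RELT, was at 2.84, 2.19 and 3.68 CPM in WT, 3.66, 3.87 and 3.48 CPM in 1-1 KO and 7.34, 4.90 and 5.51 CPM in 1-2 KO. WT overlapped 1-1 KO, and 1-2 KO was above both, with the largest SD in CPM but not relative to its mean. RELL2 rose from 2.90 ± 0.747 to 5.92 ± 1.27 CPM in 1-2 KO, by 1.04 ± 0.17 (edgeR adjusted p = 0.000158), or by 0.86 without 1-2 KO 1. Its difference of 0.35 ± 0.18 in 1-1 KO (edgeR adjusted p = 0.107) was called only without WT 3, at 0.55, among the libraries left out.

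ARAP3 (chr5:141653401-141682230, minus strand, 934.4 kb away), a GTPase-activating protein for Arf and other small GTPases, was the neighbour with the largest fold change in 1-2 KO and the lowest WT level of the 24 tested. It had 27, 18 and 8 counts in WT, 40, 41 and 18 counts in 1-1 KO and 69, 55 and 63 counts in 1-2 KO. WT and 1-1 KO overlapped, and all 1-2 KO libraries were above both. ARAP3 rose from 0.471 ± 0.213 to 1.53 ± 0.133 CPM in 1-2 KO, a log2 fold change of 1.66 ± 0.30 (edgeR adjusted p = 0.000327). In 1-1 KO the difference of 0.71 ± 0.33 was not called (edgeR adjusted p = 0.0768), but was without WT 1, at 1.08, or without 1-1 KO 3, at 1.00. PSD2, an activator of the GTPase Arf6 at the opposite end of the window, had between 4 and 10 counts and was not tested.

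**Figure D2:**
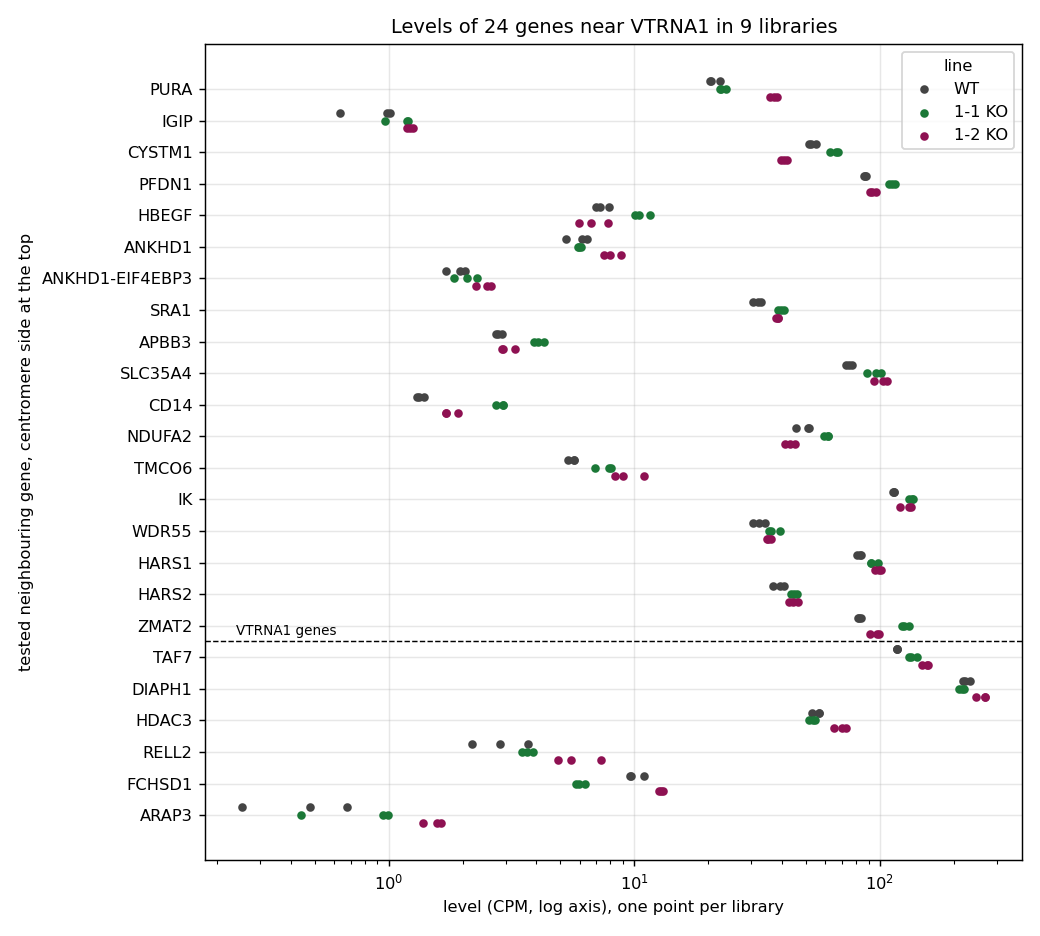
Level of each of the 24 tested neighbouring genes in the 9 libraries, in CPM on a log axis, with one point per library and colours for the lines. The genes are in chromosomal order, and the dashed line marks the vault RNA genes. The mean WT levels run from 0.471 CPM for ARAP3 to 224 CPM for DIAPH1, and the libraries of a line lie close together for all but the lowest genes.

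ANKHD1 and its readthrough partners could be measured only with reservation, since their exons overlap on the same strand. ANKHD1 (chr5:140401814-140539856, plus strand, 179.1 kb away), an ankyrin repeat and KH domain protein, shares 8437 nt, or 75.8% of its exonic length, with the readthrough gene ANKHD1-EIF4EBP3. ANKHD1 was at 5.28, 6.45 and 6.15 CPM in WT, 6.05, 5.98 and 5.93 CPM in 1-1 KO and 8.85, 7.51 and 7.94 CPM in 1-2 KO. Only the 1-2 KO libraries stood apart, above the other 6. ANKHD1 rose from 5.96 ± 0.611 to 8.10 ± 0.688 CPM in 1-2 KO, by 0.45 ± 0.09 (edgeR adjusted p = 0.00107), and was at 0.01 ± 0.10 in 1-1 KO (edgeR adjusted p = 0.941). The readthrough gene was between 1.71 and 2.62 CPM in all libraries and was called only in 1-2 KO, at 0.37 ± 0.13 (edgeR adjusted p = 0.028), a call lost without WT 2 (0.39), WT 3 (0.29), 1-2 KO 2 (0.36) or 1-2 KO 3 (0.33). EIF4EBP3, a repressor of translation that binds the cap-binding protein eIF4E, had 10, 12 and 3 counts in WT, 0, 3 and 2 counts in 1-1 KO and 15, 5 and 4 counts in 1-2 KO, and was below the filter of the main test. With no filter on low counts it was called lower in 1-1 KO than in WT (edgeR adjusted p = 0.00091), as it was with DESeq2 (adjusted p = 0.0267), but not without 1-1 KO 1 (edgeR adjusted p = 0.0594). No fold is given, since all 3 1-1 KO libraries were at 3 counts or fewer.

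The remaining neighbours were at or near the floor. SLC4A9, of the bicarbonate transporter family, had between 0 and 6 counts. With 3 counts as the limit that 0 allows, no change of SLC4A9 was detectable at this depth. ENSG00000279983, which has no symbol, had 0 counts in all libraries. Its exons lie within PCDHB14 and PCDHB15 on the same strand, so its reads may not have been assigned to it. This 0 therefore sets no limit on its level. Of the 31 genes, 19 have another protein-coding gene within their exons, and whether the counting used strand is not given in the sources used here. Reads of overlapping genes on opposite strands may therefore have been assigned to either one or to none.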

How the data were processed

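Per the labels and the methods of the study, the authors prepared stranded mRNA libraries (TruSeq) of 3 replicates per line, used STAR for alignment to hg38 and featureCounts for counting by gene. The deposited values are these raw read counts, without normalization, for 60664 genes. Strand use and multiple mapping are not given in the sources used here. Gene positions came from GENCODE on the same build, which held 60463 of the identifiers.

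Counts were tested with edgeR 4.0.16 in R 4.3.3 (TMM, filterByExpr at 10 counts and a total of 15, quasi-likelihood test, 1 fit of all 9 libraries with a term per line). Benjamini-Hochberg adjustment ran over 17207 genes, with a threshold of 0.05. The SE is the log2 fold change divided by the root of F. CPM used TMM-scaled library sizes. The biological coefficient of variation was 5.55%. The study calls the 3 libraries of a line biological replicates, and p-values measure the spread between them within 1 line. The edgeR test of 1-2 KO against WT was tried on simulated counts with known changes. Summaries used Python 3.11.15 with pandas 2.3.3.

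Distance ran from the nearer end of VTRNA1-2 to the nearest edge of a gene. Full statistics are given for the 5 tested genes nearest to VTRNA1-2 on each side and the 5 called genes with the largest absolute change in each knockout, with others named by direction and range, and from each partner list at most the 2 genes with the smallest adjusted p. NDUFA2 and CYSTM1 were given in full after their values were seen. The neighbouring genes, lists, motifs and alternatives were chosen with earlier results of these data known. Alternatives covered normalization, filters, DESeq2 1.42.0, the libraries fitted, the threshold, the window and each library left out. All columns of the table were used. A partner list is not reported here.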

Additional observations from a re-analysis of the deposited data

Results flagged for a closer look

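The 3 neighbouring genes CYSTM1, NDUFA2 and FCHSD1 were called in opposite directions in the knockouts, and their difference was tested directly between 1-2 KO and 1-1 KO in the same edgeR fit. The log2 fold change of 1-2 KO against 1-1 KO was -0.68 ± 0.04 for CYSTM1 (edgeR adjusted p = 6.63e-09), -0.49 ± 0.05 for NDUFA2 (edgeR adjusted p = 1.18e-06) and 1.09 ± 0.08 for FCHSD1 (edgeR adjusted p = 1.36e-08). In each case the 3 libraries of one line lay entirely apart from the 3 of the other. The genes were picked for opposite calls against the same WT libraries. A direct difference and separate libraries follow from that choice and give no further evidence, only the size of the difference. CYSTM1 shares 39 nt of exon with PFDN1, NDUFA2 shares 124 nt with TMCO6 and 54 nt with IK, and FCHSD1 shares 990 nt with RELL2, all on opposite strands, and the part of these overlaps in the differences was not tested.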

How the results depend on the processing

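The median log2 fold change of the neighbours in 1-1 KO, 0.30 as reported, was 0.29 with DESeq2's size factors, 0.35 with library size only, 0.22 with no filter on low counts, 0.32 with at least 10 counts in every library, 0.42 with the chromosome 5 median subtracted, 0.31 in a fit of only these lines, 0.22 with DESeq2's Wald test, 0.32 in a window of 500 kb and 0.27 over the 8 tested genes without exonic overlap. In 1-2 KO, 0.30 as reported, it was 0.35 with library size only, 0.24 with no filter, 0.27 with at least 10 counts, 0.25 with DESeq2, 0.21 within 500 kb and 0.40 without overlapping genes. The direct median of 0.08 was 0.05 with at least 10 counts and 0.23 without overlapping genes, and it turned to -0.02 with the chromosome median subtracted and -0.06 within 500 kb, so its sign was not stable. The median minus that of the flanking genes, chosen after seeing the data, was 0.39 (no filter, DESeq2) and 0.47 (at least 10 counts, only these lines) in 1-1 KO, and -0.08 (no filter, DESeq2) in 1-2 KO.

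Leaving out each library in turn gave a median of 0.24 to 0.29 in 1-1 KO, 0.26 to 0.30 in 1-2 KO and 0.05 to 0.14 directly, and a difference from the flanks of 0.37 to 0.45 and -0.08 to -0.04. The single downregulated gene of 1-1 KO became 2 with no filter, with DESeq2 and when WT 1, WT 3, 1-1 KO 2 or 1-1 KO 3 was left out, because EIF4EBP3 then entered the test, and 0 within 500 kb or without overlapping genes. Without overlapping genes, an alternative added after seeing the data, 3 of 8 tested genes were higher in 1-1 KO against 15 of 24, 6 higher and 0 lower in 1-2 KO, and 5 higher and 2 lower directly. Within 500 kb, 11 of 16 were higher in 1-2 KO and 2 of 16 directly, against 18 and 9 of 24. Fewer genes were tested in both settings, and the share higher also fell in 1-1 KO without overlapping genes and directly within 500 kb, where the cause was not tested.

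The replicate numbers did not pair the samples (correlations of -0.187 to 0.0474 between deviations of same-numbered libraries), and with the replicate block the counts stayed at 15 and 1, 18 and 2, and 9 and 7. Library size only moved the median of all genes to 0.06 and 0.07. No call of a single tested gene reversed. In 1-2 KO, the calls of PFDN1, ANKHD1-EIF4EBP3 and CD14 were also lost with no filter and with DESeq2, and with the chromosome median subtracted the direct calls of TAF7 and TMCO6 were lost. Depth limits the genes under the filter, and exonic overlap may also limit DND1 and ENSG00000279983.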
